A study of Mus musculus with 12 samples.

Results

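Organoids grown from glands of the mouse antrum, the outlet end of the stomach, were compared with organoids grown from glands of the corpus, the body of the stomach, while both were kept in a medium rich in Wnt. The libraries were chosen by their region and treatment labels alone, which gave 6 of the 12 libraries of the series: 3 antral and 3 corpus libraries, each from lines numbered 8025, 8026 and 8028. All lines were wild-type (WT), were cultured in Matrigel and had been passaged at least 3 times. Both growth media held 50% L-WRN, medium conditioned by cells secreting a Wnt ligand, R-spondin and noggin. Fetal bovine serum made up 20% of the corpus medium but 10% of the antral one, and serum therefore cannot be told apart from region. Vehicle (DMSO; the treatment label reads none) was added on day 4 after passage, and polyadenylated RNA was sequenced from organoids lysed 24 h later. The other 6 libraries came from the same lines after Wnt inhibition, which combined XAV939, removal of added Wnt and R-spondin, and Noggin-1 at 100 ng/mL. They entered the statistical fit and are set beside the vehicle values where stated. The lines are described as independent, but nothing says whether a number shared by antrum and corpus marks the same mouse. The p-values rest on the spread among libraries of these lines, pooled over vehicle and inhibited libraries. Both libraries of a line within a region entered that spread as if independent.

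The corpus normally holds acid-secreting parietal cells and pepsinogen-secreting chief cells, whereas antral glands are mainly mucous and hold the gastrin-secreting endocrine cells. Homeodomain transcription factors help to set these territories: Pdx1 and Nkx6-3 are known from the distal stomach, and the Iroquois (Irx) genes pattern many embryonic tissues and lie in clusters in the genome. Wnt and R-spondin keep the gland stem cells dividing in both regions, and mature cells are sparse in culture while Wnt is supplied. The vehicle comparison asks which differences between the regions remain in such cultures.

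Library totals of the 6 vehicle libraries ran from 18858022 to 31656696 counts. Values below are CPM, read counts relative to the TMM-scaled library total, given for lines 8025, 8026 and 8028 in that order. Where a gene had no count in a library, the limit is 3 counts, which is 0.0889 to 0.177 CPM here. The 10 genes listed for gastric epithelium, which include general epithelial genes such as Epcam and keratins, summed to between 9653 and 11589.7 CPM in every vehicle library. This sum does not by itself set stomach apart from other epithelia. Markers of the mature lineages were uneven. Atp4b, a subunit of the gastric proton pump, had no count in any vehicle library. The hormone genes Gast and Sst and the pepsinogen gene Pga5 stayed at or below 0.326 CPM. By contrast, the chief cell products Cblif and Pgc stood at up to 192 and 170 CPM. The 12 chief cell genes summed to 438 to 811 CPM, but in each library most of that came from members other than Cblif and Pgc. The 14 fibroblast and smooth muscle genes summed to at most 3.18 CPM. Of the 15 immune genes, 7 had no count, and nearly all of their sum of 10.3 to 39.2 CPM was Cd68, at 37.1, 38.5 and 28.2 CPM in corpus and 19.8, 9.56 and 27.2 CPM in antrum. In antral lines 8025 and 8028, genes that carry ribosomal RNA-like reads took 17.5% and 6.99% of the counts, against 0.874% to 1.47% in the other 4 vehicle libraries; the part of this in the results was not tested, beyond a fit that left those genes out before scaling (33 calls with 12 libraries, 1072 with 10). Counts of the X-linked transcript Xist were at least 20651 in every vehicle library, while the 4 Y-linked genes had 0 or 1 count.

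The library labelled corpus 8028 lay apart from the other corpus libraries on the first principal component. Over all genes tested, its log2 CPM correlated slightly better with the other corpus libraries (mean 0.986) than with the antral ones (mean 0.984). Corpus 8025 and 8026 correlated at 0.991, and the antral libraries among themselves at 0.983 to 0.986. On the second component, with 20.5% of the variance, the antral lines ranged from -28.7 to 31.9. On the first principal component of the 6 vehicle libraries, which held 40.5% of the variance, corpus lines 8025 and 8026 lay at -35.4 and -35.9, the antral lines between 15.9 and 34.8, and the library labelled corpus 8028 at -6.28. The regional gene Nkx6-3, for example, stood at 0.296, 1.24 and 48.7 CPM in corpus lines 8025, 8026 and 8028, against 66.5, 70.1 and 61.5 CPM in antrum. The inhibited library of corpus line 8028 was placed likewise, over genes called after inhibition in a fit without both libraries of that line. It lay beyond the inhibited antral mean for most of these genes, at a median of 121% of the way. Each result is therefore given from a fit of all 12 libraries and from a fit of 10 libraries that leaves out both libraries of corpus line 8028. That line was set aside after its place between the regions was seen, so the 10-library counts are conditioned on the regional difference they measure: the spread within the groups falls (common biological coefficient of variation 0.149 with 12 and 0.1104 with 10 libraries) and the difference between them widens by that choice. Leaving out both corpus libraries of line 8025 in its place gave 2 calls, and of line 8026 gave 1.

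**Figure D1:**
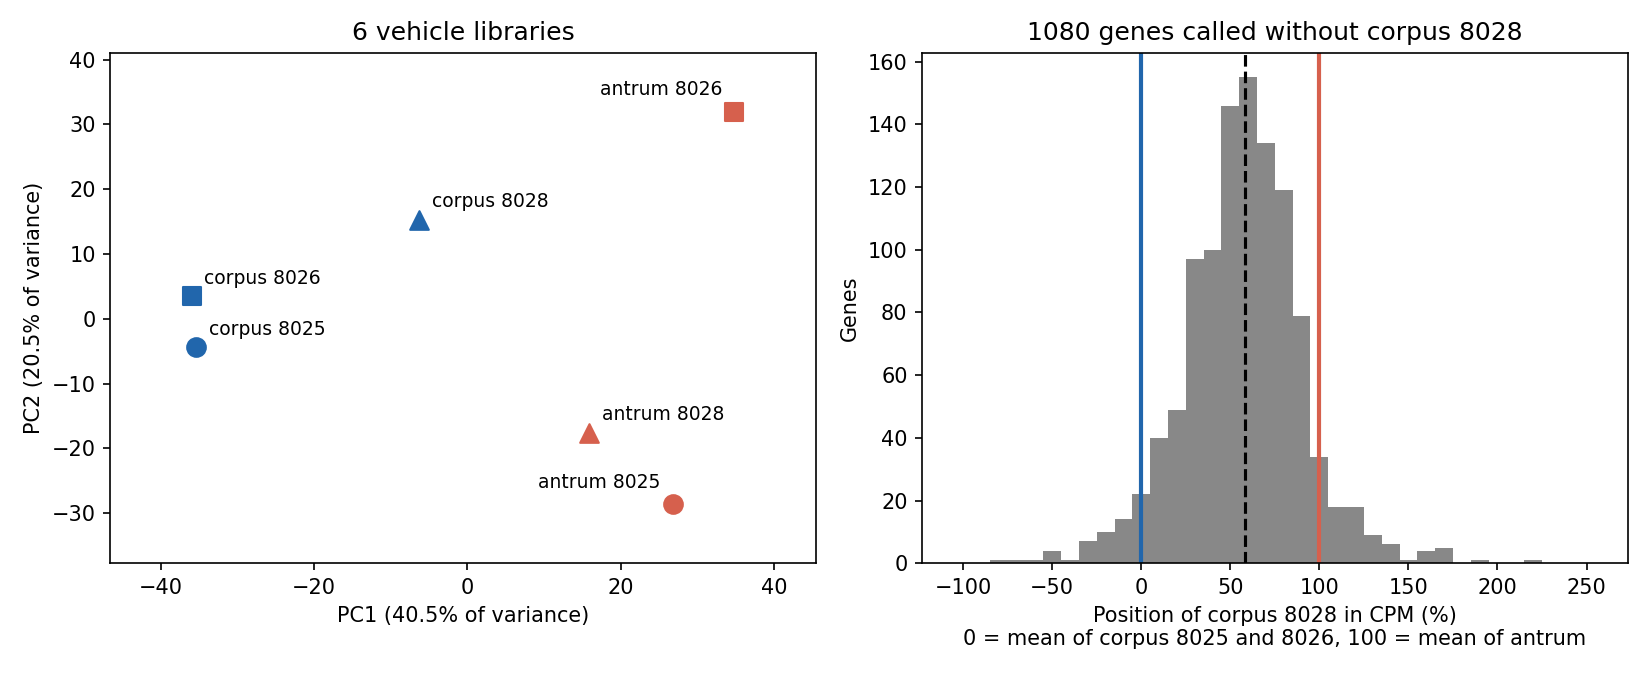
Left, the first and second principal components of log2 CPM for the 6 vehicle libraries (blue, corpus; red, antrum; circle, square and triangle, lines 8025, 8026 and 8028), with 40.5% and 20.5% of the variance. Right, a histogram of where the library labelled corpus 8028 lies, in CPM, between the mean of the other corpus libraries (0%, blue line) and the antral mean (100%, red line) for the 1080 genes called without it; the dashed line is the median, 58.4%.

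With all 12 libraries, 32 of 16152 genes differed between antrum and corpus in vehicle (0.198%; edgeR quasi-likelihood test, Benjamini-Hochberg adjusted p below 0.05), 11 higher in antrum (0.0681%) and 21 lower (0.13%); 2490 had an unadjusted p below 0.05. A change of at least 2-fold was seen in 3 of the higher and 13 of the lower genes. With 10 libraries, 1080 of 16355 genes differed (6.6%), 372 higher in antrum (2.27%) and 708 lower (4.33%), of which 70 and 177 by at least 2-fold. All 32 genes of the 12-library fit were also called, with the same sign, in the 10-library fit. Over the 1080 genes, the library labelled corpus 8028 lay at a median of 58.4% of the way from the other corpus libraries to the antral mean in CPM (interquartile range 36.7% to 76.6%), and for 662 of them it lay nearer to antrum. These genes were chosen for a difference between the other libraries, so a corpus library that took no part in the choice need not lie at 0%. With corpus 8025 or 8026 left out, that library lay at a median of 10.9% or -3.45% over the 1080 genes of lowest p. There the 0% point included the library labelled corpus 8028, and only 2 and 1 genes were called. Those medians are therefore not measured on the same footing as 58.4%.

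Both counts depended on single libraries. In the 12-library fit the count was 1 without corpus 8025, 1 without corpus 8026 and 1 without antral 8025, 70 without the vehicle library labelled corpus 8028, 45 without antral 8026 (39 higher) and 32 without antral 8028 (26 lower), and 12 of the 32 calls were kept in each of these last 2 settings. In the 10-library fit it was 134 and 99 without corpus 8025 or 8026, which leaves 1 corpus vehicle library that is assumed to vary like the other groups, and 651, 520 and 1933 without antral 8025, 8026 or 8028. Under RLE, upper quartile and total-count scaling the 12-library fit gave 8, 9 and 7 higher and 9, 9 and 54 lower, and the 10-library fit with total counts gave 160 higher and 1207 lower.

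Iroquois genes were higher in corpus. Of 6 tested genes of the list of corpus-associated factors 1 was lower in antrum with 12 libraries and 3 with 10. All of them were Iroquois genes, and 0.13% and 4.33% of all genes were called lower. The list was drawn up with earlier results of these data known, so its share is not independent support. Irx2 stood at 8.24, 6.41 and 0.832 CPM in corpus and had no count in any antral library, 504 counts against 0, which is at least 126-fold higher in corpus against a floor of 3 counts over the antral group (at least 175-fold without the library labelled corpus 8028). Irx5 stood at 12.9, 10.7 and 2.13 CPM in corpus and 0, 0.0330 and 0.125 CPM in antrum, a ratio of 156 (95% exact counting interval 60.8 to 575), and of 211 (82.1 to 776) without the library labelled corpus 8028. Irx3 stood at 5.99, 3.95 and 2.16 CPM in corpus and 0.649, 0.362 and 1.00 CPM in antrum, a ratio of 6.37 (4.68 to 8.84). The 2 groups did not overlap for any of the 3 genes, and in each the library labelled corpus 8028 lay between the other corpus libraries and antrum. Irx5 was called with 12 libraries (adjusted p 0.0458), Irx2 and Irx3 were not (adjusted p 0.0876 and 0.0748), and all 3 were called with 10 (adjusted p 0.000142 for Irx2, 0.00383 for Irx3 and 1.06e-05 for Irx5). The counting intervals cover counting error only.

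The closest neighbours of Irx5 and Irx2 were higher in corpus too. On GRCm38, Irx5 (chromosome 8, 92357625 to 92376286, forward strand) starts 1.505 kb from Crnde (92326033 to 92356120, reverse strand), a long noncoding RNA gene transcribed away from it, and Irx3 (91798525 to 91802067, reverse strand) lies 556 kb away. Crnde stood at 4.36, 3.51 and 1.20 CPM in corpus and 0.177, 0.0659 and 0.0417 CPM in antrum, a ratio of 36.6 (16.6 to 100.5), and was called in both fits (adjusted p 0.0458 and 0.000269). Fto, which lies beyond Irx3, and Lpcat2, which lies beyond Irx5, were called in neither fit (log2 difference, antrum minus corpus, -0.10 and 0.21 with 12 libraries). Irx2 (ENSMUSG00000001504; chromosome 13, 72628820 to 72634198, forward strand) has a divergent neighbour, the noncoding gene Gm20554 (72626213 to 72628564, reverse strand), which stood at 3.17, 3.19 and 0.399 CPM in corpus and had no count in antrum, at least 54.7-fold higher in corpus (adjusted p 0.00140 with 10 libraries, 0.127 with 12). Counting is not stated to use strand, so reads of neighbouring or overlapping genes on opposite strands are uncertain.

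The 250 bases before the RefSeq start of Irx2 (GRCm38.p6, chr13:72628570-72628819, forward strand) are shown because they lie wholly in the gap between Irx2 and Gm20554 and so precede both genes. Capitals mark CG pairs, of which there are 19, against a median of 6 over 32851 windows of the same length before RefSeq starts; 19.7% of the windows hold as many or more. The G and C content is 68.4%, against a median of 52.4%.
Irx2: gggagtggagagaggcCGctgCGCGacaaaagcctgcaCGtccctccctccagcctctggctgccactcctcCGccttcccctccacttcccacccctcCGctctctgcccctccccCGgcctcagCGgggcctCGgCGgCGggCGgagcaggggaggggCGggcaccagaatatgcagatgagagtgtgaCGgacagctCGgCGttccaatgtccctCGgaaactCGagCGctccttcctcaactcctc
The count describes the window and locates no regulatory site.

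Among antrum-associated factors, Nkx6-3 and Pdx1 were higher in antrum with 10 libraries. Of the 5 tested genes of this list these 2 were called higher with 10 libraries and 0 lower (2.27% and 4.33% of all genes), and 0 were called with 12; Isl1, an endocrine factor, stood at 5.28, 10.5 and 2.33 CPM in corpus and, below them all, 2.24, 0.758 and 0.209 CPM in antrum, and passed in neither fit. Nkx6-3 (chromosome 8, 23153269 to 23158948, forward strand) had 49 counts in corpus lines 8025 and 8026 together and 4728 in the 3 antral libraries, a ratio of 88.2 (66.6 to 119) without the library labelled corpus 8028 and of 4.18 (3.94 to 4.43) with it. It was called with 10 libraries (adjusted p 0.00350) and not with 12 (adjusted p 0.536). Gm15816, an uncharacterised transcript 3.68 kb from Nkx6-3, stood at 0.178, 0.893 and 9.12 CPM in corpus and 10.2, 7.84 and 10.0 CPM in antrum (adjusted p 0.0137 with 10 libraries, 0.579 with 12). Pdx1, which the corpus lines also expressed, stood at 20.7, 19.8 and 27.2 CPM in corpus and 29.8, 30.8 and 32.8 CPM in antrum, with a log2 difference of 0.47 ± 0.147 SE (adjusted p 0.193) with 12 libraries and 0.62 ± 0.0801 (adjusted p 0.00338) with 10. The groups did not overlap for Pdx1, and its difference was far smaller than that of Nkx6-3. Nkx6-2, a homeodomain factor of the corpus-associated list, stood at 0.0889, 6.70 and 15.0 CPM in corpus and 20.3, 26.1 and 26.4 CPM in antrum and passed in neither fit (adjusted p 0.462 and 0.188) although the groups did not overlap; its values in the 3 corpus lines were far apart.

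Factors known from the whole glandular stomach did not pass the test. Gata4 stood at 95.4, 96.1 and 84.3 CPM in corpus and 82.9, 81.3 and 90.9 CPM in antrum, and Gata6 at 67.2, 61.0 and 54.0 CPM in corpus and 61.5, 54.5 and 57.1 CPM in antrum. Sox2, a foregut factor, stood at 25.3, 22.1 and 20.0 CPM in corpus and 14.4, 20.2 and 22.4 CPM in antrum, and the groups overlapped. None of the 3 passed in either fit. Of 27 foregut and gut endoderm factors tested, 4 were higher in antrum with 10 libraries and 1 was lower, against 2.27% and 4.33% of all genes, and none was called with 12; the share lower, 1 of 27, is near that of all genes. The higher ones were Meis2 (27.8, 33.9 and 46.5 CPM in corpus, 47.4, 53.2 and 61.0 in antrum), Foxq1, Spdef and Foxa3, with log2 differences of 0.32 to 0.81; the lower one was Nr2f2 (-0.53 ± 0.126 SE). Of the 39 Hox genes, 30 had no count in any vehicle library and none was high enough to test.

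**Figure D2:**
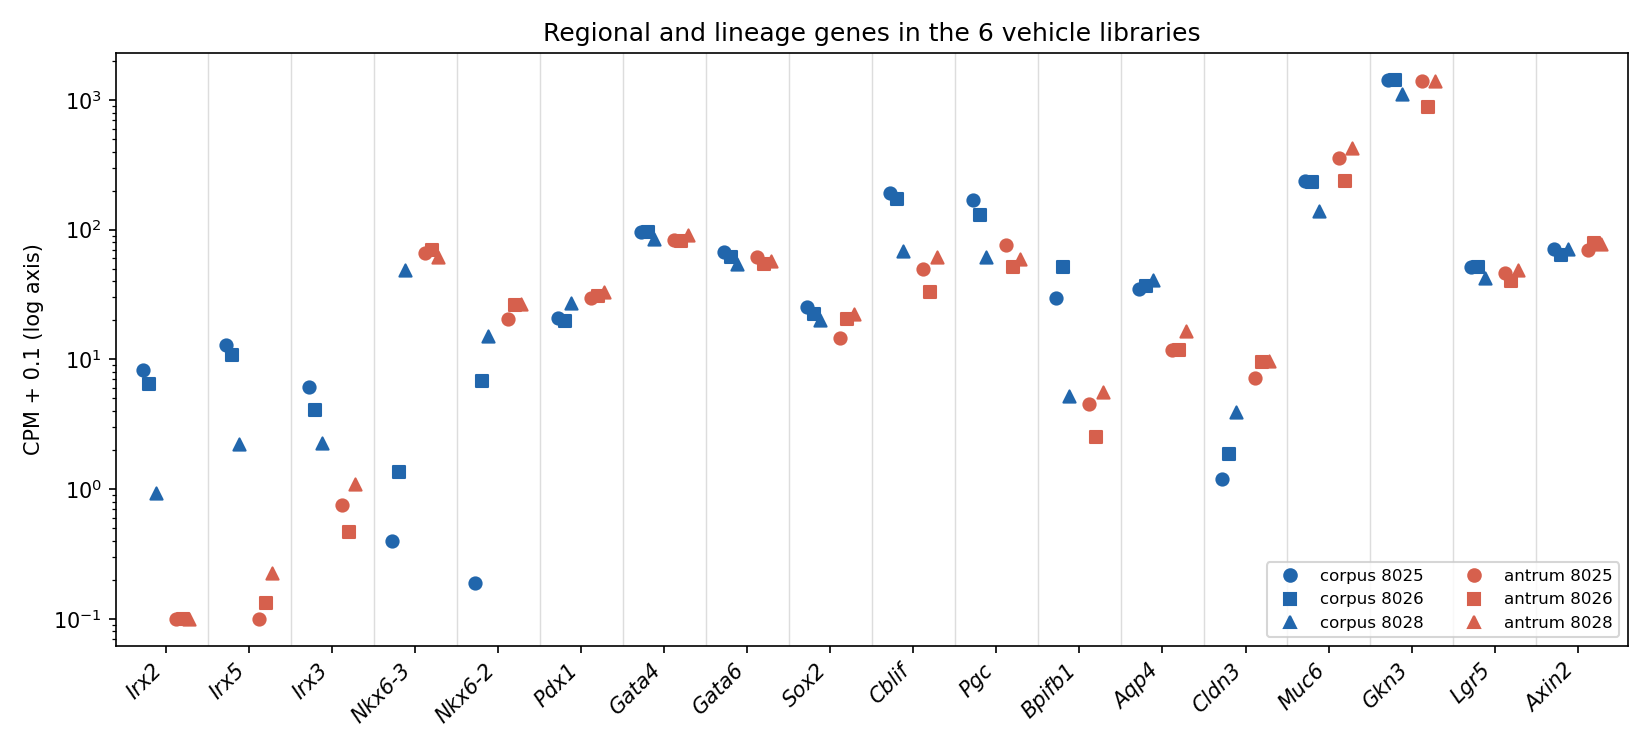
CPM plus 0.1 on a log axis for 18 regional and lineage genes in the 6 vehicle libraries (blue, corpus; red, antrum; circle, square and triangle, lines 8025, 8026 and 8028). The library labelled corpus 8028 lies near the antral libraries for Nkx6-3, Cblif, Pgc and Bpifb1, and near the other corpus libraries for Aqp4.

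Some genes listed for the mature corpus lineages were lower in antrum with 10 libraries, and none was called with 12. The counts were 1 of 7 chief cell and 3 of 8 parietal cell genes, against 4.33% of all genes, and 0 were higher. Cblif, which encodes gastric intrinsic factor, a chief cell product in mice, stood at 192, 173 and 68.9 CPM in corpus and 49.8, 32.9 and 61.4 CPM in antrum. It was called with 10 libraries (log2 difference -1.93 ± 0.315 SE, adjusted p 0.0174) and not with 12 (-1.59 ± 0.384, adjusted p 0.1097). Pgc, a pepsinogen precursor gene, stood at 170.2, 129.8 and 61.0 CPM in corpus and 76.6, 51.1 and 59.4 CPM in antrum and passed in neither fit. Of 7 chief cell genes tested, Cblif was the only one called. Among 8 parietal cell genes 3 were lower in antrum with 10 libraries: the water channel gene Aqp4 (adjusted p 0.0210), which stood at 34.8, 36.8 and 41.1 CPM in corpus and 11.7, 11.7 and 16.4 CPM in antrum, and the potassium channel genes Kcnj15 (adjusted p 0.0294) and Kcnq1 (adjusted p 0.0458). The library labelled corpus 8028 was as high as the other corpus libraries for Aqp4, but at 12.1 CPM it was below every antral library for Kcnj15. Of the proton pump genes, Atp4b had no count in any vehicle library and Atp4a passed in neither fit. The 3 calls therefore cannot be read as a measure of parietal cells. In bulk RNA, fewer cells of a type and less RNA per cell cannot be told apart.

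Mucous cell genes were called with 10 libraries in 1 of 12 neck and deep gland genes and 2 of 12 pit genes, against 6.6% of all genes either way, and in 0 with 12. The gland mucin gene Muc6 stood at 238, 233 and 138 CPM in corpus and 354, 238 and 423 CPM in antrum, and the gland gene Gkn3 at 1413, 1426 and 1110.02 CPM in corpus and 1394, 881 and 1408 CPM in antrum; neither passed in either fit. The trefoil genes Tff1 (265, 207 and 171 CPM in corpus, 226, 269.9 and 281 in antrum) and Tff2 (131, 149 and 238 CPM in corpus and 141, 90.7 and 218 in antrum) overlapped between groups, and Muc5ac stayed at or below 1.63 CPM in all 6. The neck and deep gland gene called with 10 libraries was Bpifb1, a secreted protein of the mucosa, at 29.4, 51.8 and 5.16 CPM in corpus and 4.42, 2.41 and 5.51 CPM in antrum (log2 difference -3.32 ± 0.365 SE, adjusted p 0.00307; 0.145 with 12). Of the pit genes, Mucl3 was lower in antrum (log2 -1.46 ± 0.289) and Foxq1 higher (0.48 ± 0.101) with 10 libraries. Insm1, an endocrine factor, was higher in antrum at 4.54, 4.91 and 3.63 CPM, against 2.34, 1.28 and 1.56 CPM in corpus (adjusted p 0.0309 with 10 libraries, 0.0791 with 12), and was the only one of 7 endocrine genes tested that was called.

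The lowest adjusted p of the 12-library fit was that of Akr1c14, an aldo-keto reductase that acts on steroids and other carbonyl compounds. It stood at 10.0, 14.0 and 10.3 CPM in corpus and 2.01, 2.93 and 2.88 CPM in antrum, a log2 difference of -2.11 ± 0.173 SE (adjusted p 0.00119) with 12 libraries and -2.17 ± 0.188 (adjusted p 0.000633) with 10. The library labelled corpus 8028 was within the range of the other corpus libraries here. Akr1c14 was the only one of the 32 genes that stayed called in all 18 alternatives run for it, with adjusted p from 2.38e-25 to 0.0422. The gene lies on chromosome 13 from 4049011 to 4090688 on GRCm38, among closely related Akr1c genes, so its counts are uncertain to the extent that reads were shared.

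All called enzymes that act on foreign compounds were lower in antrum. Of 54 xenobiotic enzyme genes tested, 6 were lower and 0 higher with 12 libraries, and 19 were lower and 0 higher with 10; by comparison 0.13% and 4.33% of all genes were called lower. The median log2 difference of the list was -0.51 in both fits, against -0.01 over all genes tested, and 49 of 54 genes had a negative difference with 12 libraries. For 25 of them the 3 antral libraries all lay below the 3 corpus libraries, and for none all above; among all genes tested this was so for 12.8% and 9.68%. Of the 19 genes called with 10 libraries, the library labelled corpus 8028 lay between the groups for 15 and within or beyond the other corpus libraries for 4.

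Several of these enzymes were abundant. Gstm1, a glutathione transferase, stood at 427, 423 and 379.6 CPM in corpus and 241, 199.9 and 277 CPM in antrum (log2 difference -0.78 ± 0.132 SE, adjusted p 0.0493 with 12 libraries and 0.00415 with 10). Gstm3 stood at 51.7, 49.6 and 40.1 CPM in corpus and 21.6, 16.2 and 27.3 CPM in antrum (-1.12 ± 0.190, adjusted p 0.0493 and 0.0191). Aldh3a1, an aldehyde dehydrogenase, stood at 161, 132 and 146 CPM in corpus and 58.2, 55.9 and 84.3 CPM in antrum (-1.14 ± 0.172, adjusted p 0.0412 and 0.00805). In all 3 the groups did not overlap, and antral line 8028 was the highest of the antral libraries.

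Other families were also among the called enzymes. Ces1d, a carboxylesterase, had 535 counts in corpus and 67 in antrum, a ratio of 5.98 (95% exact counting interval 4.63 to 7.83), and was called in both fits (adjusted p 0.0213 and 0.000956). Cyp2c55, a cytochrome P450, stood at 3.97, 2.10 and 1.36 CPM in corpus and 0.354, 0.395 and 0.626 CPM in antrum and was called with 10 libraries (adjusted p 0.00751; 0.0693 with 12). Ugt1a6a, a glucuronosyltransferase, stood at 57.6, 57.7 and 66.5 CPM in corpus and 35.5, 39.8 and 44.7 CPM in antrum and was called in both (adjusted p 0.0458 and 0.0159). Nqo1, a quinone reductase that answers to the oxidative stress factor NRF2, stood at 135, 136 and 128 CPM in corpus and 82.5, 75.2 and 102 CPM in antrum and was called with 10 libraries (adjusted p 0.0144) and not with 12 (0.133). Gstm, Akr1c, Ces1, Cyp2c and Ugt1a genes have near-identical relatives or shared exons, so their separate counts are uncertain. The list's count with 12 libraries was 1 without corpus 8025, corpus 8026 or antral 8025, 2 without antral 8026 and 11 without antral 8028; with 10 it was 3 and 4 without corpus 8025 or 8026, 12 and 11 without antral 8025 or 8026, and 32 without antral 8028.

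Cholesterol synthesis genes were higher in antrum. Of the 26 genes of this list, all tested, 2 were higher with 12 libraries and 21 with 10, and 0 were lower in either fit, where 0.0681% and 2.27% of all genes were called higher. The median log2 difference was 0.38 with 12 and 0.46 with 10 libraries, and 24 of 26 genes had a positive difference in both. For 18 genes all antral libraries lay above all corpus libraries, and for none below, where the groups did not overlap in 9.68% of all genes in the first direction and 12.8% in the second. Each of the 21 called genes differed by at least 0.35 on the log2 scale, and the library labelled corpus 8028 lay between the groups for 15 of them. The antral medium held 10% serum and the corpus medium 20%, and region and serum cannot be told apart in this result.

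The called genes lie at several steps of the pathway. Mvk, the mevalonate kinase, stood at 26.2, 24.4 and 32.4 CPM in corpus and 38.6, 39.9 and 36.7 CPM in antrum (adjusted p 0.105 with 12 libraries and 0.00374 with 10). Fdps, which makes farnesyl diphosphate, stood at 177, 188 and 220.05 CPM in corpus and 278, 276 and 300.5 CPM in antrum (log2 difference 0.55 ± 0.0760 SE, adjusted p 0.0304 and 0.000836). Lss, the synthase that closes the sterol rings, stood at 98.7, 112 and 125 CPM in corpus and 153, 143 and 177 CPM in antrum (0.49 ± 0.146, adjusted p 0.175 and 0.0116). In these 3 genes every antral library exceeded every corpus library, and the library labelled corpus 8028 was the highest of the corpus libraries.

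The late synthesis genes Tm7sf2 (24.0, 22.6 and 30.4 CPM in corpus, 39.8, 42.3 and 41.4 in antrum) and Nsdhl (45.6, 46.2 and 55.8 CPM in corpus and 71.9, 64.5 and 65.7 in antrum) were called with 10 libraries. Srebf2, the gene of the transcription factor that drives the pathway, stood at 296, 298 and 309.7 CPM in corpus and 320.3, 309 and 345 CPM in antrum and passed in neither fit. Insig1, which holds that factor inactive when sterol is plentiful, overlapped between groups at 216, 227 and 218 CPM in corpus and 184, 167 and 284 CPM in antrum. Erg28, a sterol synthesis scaffold outside the list, was called in both fits at 44.2, 47.1 and 49.2 CPM in corpus and 61.0, 61.0 and 60.7 CPM in antrum (adjusted p 0.0458 and 0.00498). With 10 libraries the list's count fell to 10 and 12 without corpus 8025 or 8026, stayed at 18 to 20 without an antral library and was 14 with total-count scaling; with 12 libraries it was 11 without the vehicle library labelled corpus 8028, and at most 1 without any other single vehicle library or with total counts.

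The upstream 250 bases were searched for the sterol regulatory element in the form TCACNCCAC, on both strands, in the 18 list members with a RefSeq window on GRCm38.p6. A match was found in 1 of the 18, Hmgcs1, against 1.22% of the 27025 genes with a window. The window of Hmgcs1, the synthase that opens the pathway (chr13:119690101-119690350, forward strand), is shown with the match in capitals, 129 bases before the start.
Hmgcs1: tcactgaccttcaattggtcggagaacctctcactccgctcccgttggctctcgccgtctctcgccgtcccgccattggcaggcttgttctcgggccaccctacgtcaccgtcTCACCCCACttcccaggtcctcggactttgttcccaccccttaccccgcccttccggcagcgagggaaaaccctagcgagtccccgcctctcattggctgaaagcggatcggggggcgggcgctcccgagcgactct
Hmgcs1 itself stood at 279, 288 and 347 CPM in corpus and 374, 343 and 428 CPM in antrum, and was called with 10 libraries (adjusted p 0.0301) and not with 12 (0.237); with the library labelled corpus 8028 the groups overlapped. For the xenobiotic enzymes the core of the antioxidant response element, TGACNNNGC on both strands, was found before 4 of 56 genes with a window, against 11.5% of the 27025, and before 0 of the 16 called ones. A missing match says only that these letters are not in the window.

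**Figure D3:**
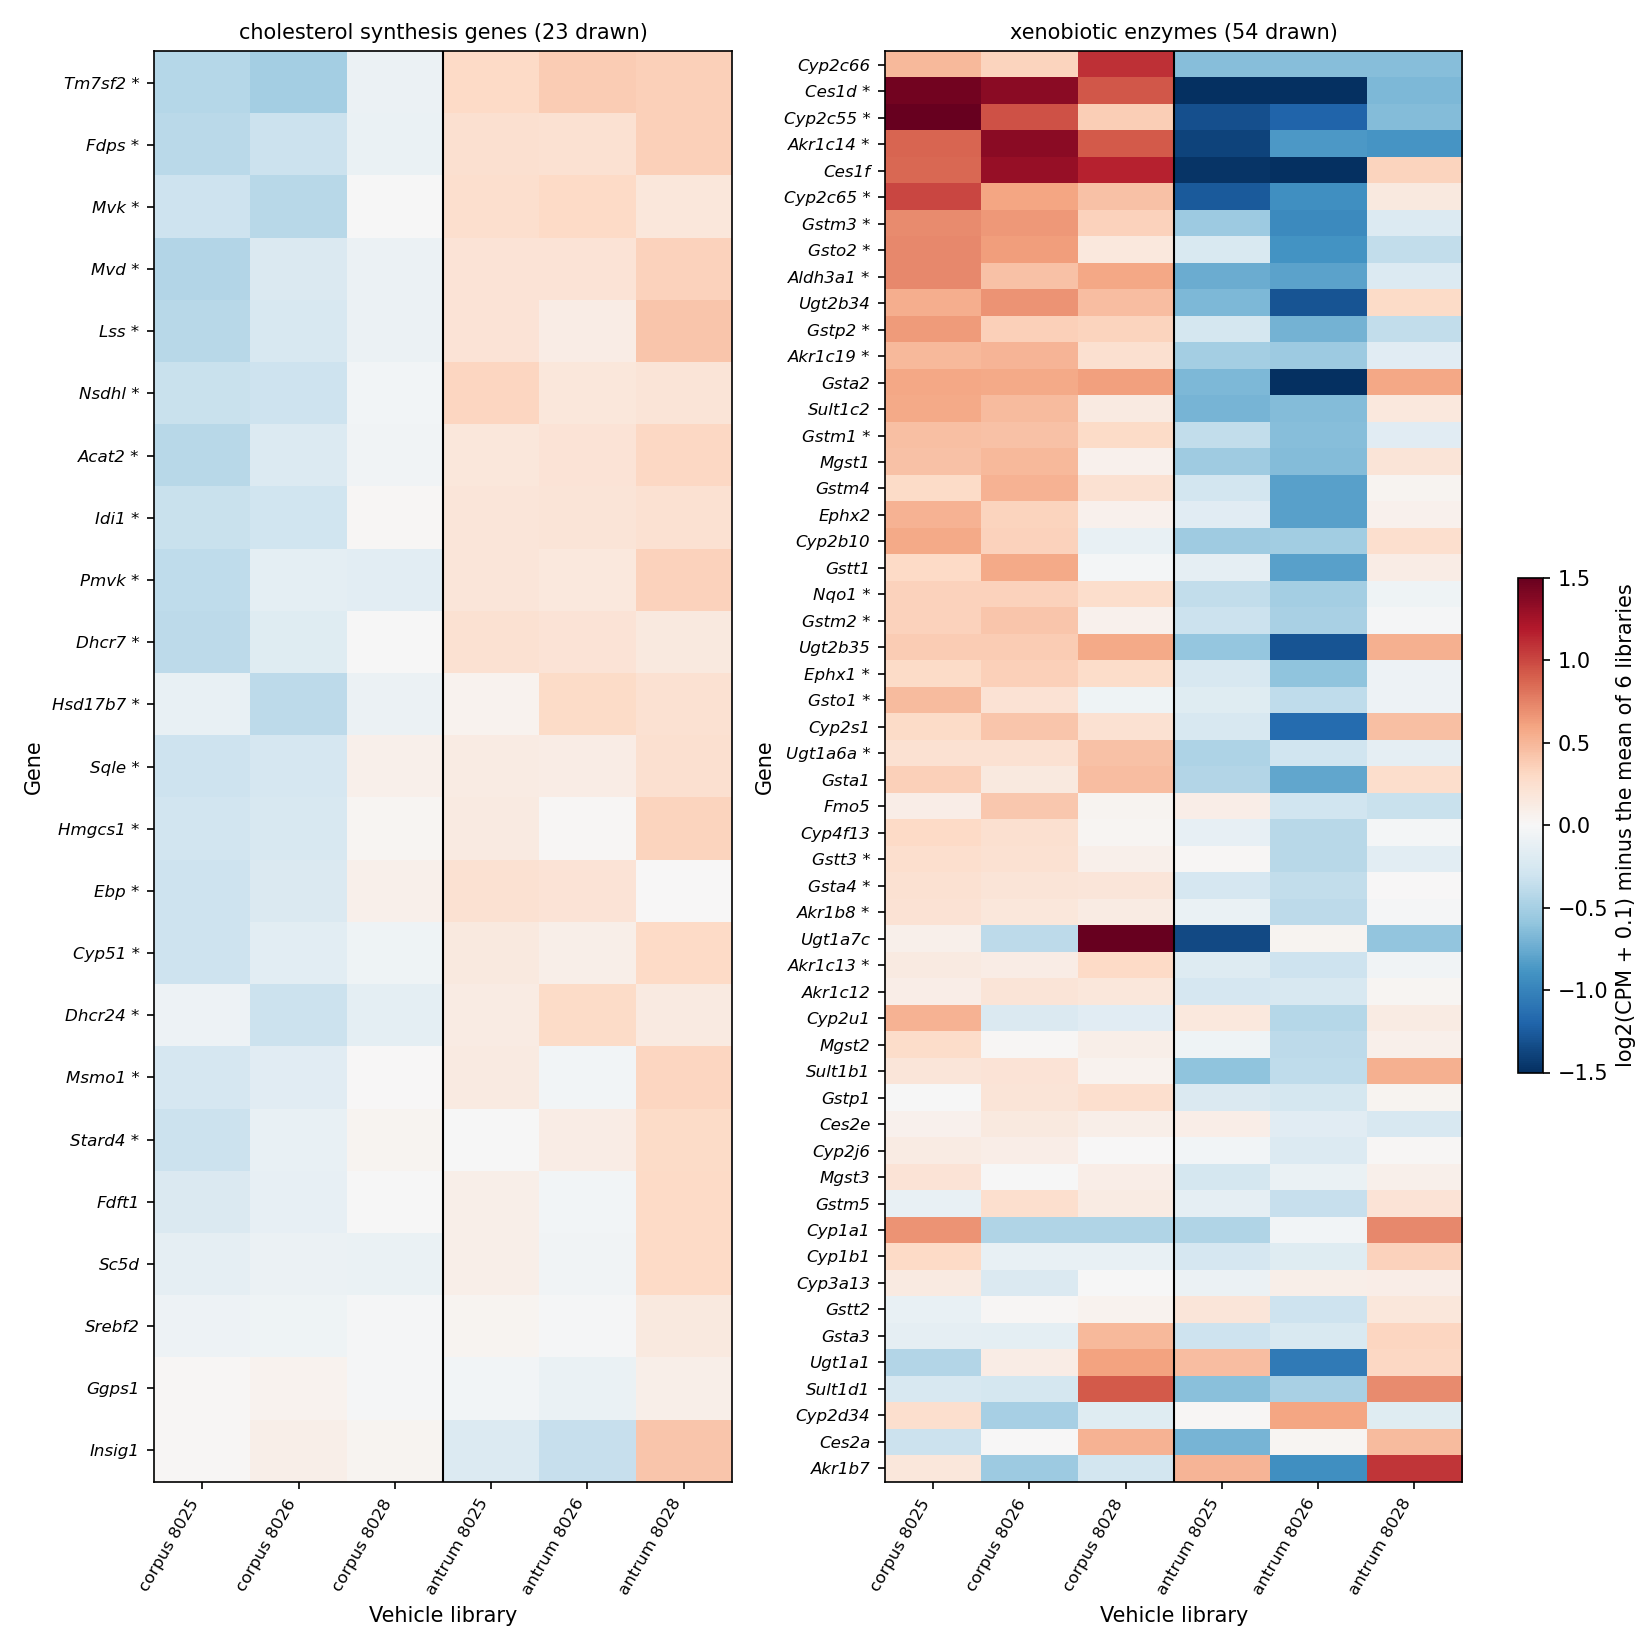
Log2(CPM + 0.1) minus the mean of the 6 vehicle libraries for 23 of the 26 cholesterol synthesis genes (left) and the 54 xenobiotic enzyme genes tested (right), one column a library; red is above and blue below the gene's mean, with colours saturated at 1.5, and asterisks mark genes called with 10 libraries. In the called genes of the left panel the antral columns are mostly red and corpus 8025 and 8026 blue, the reverse of the right panel.

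Fatty acid synthesis and desaturation genes were among those higher in antrum. Of 35 genes tested 9 were higher and 2 lower in antrum with 10 libraries, against 2.27% and 4.33% of all genes, and none was called with 12. The share lower is near that of all genes, and the list's median log2 difference was 0.03 with 10 libraries, which turned to -0.05 with total-count scaling. Among the higher genes were Scd1, a desaturase, at 99.7, 113 and 158 CPM in corpus and 205, 195 and 225 CPM in antrum (adjusted p 0.00123 with 10 libraries, 0.0712 with 12), and Fads2, another desaturase, at 95.2, 98.2 and 129 CPM in corpus and 169, 185 and 160.2 CPM in antrum (adjusted p 0.000671 and 0.104). Fasn, the fatty acid synthase, and Acly, which supplies its acetyl groups, were also higher with 10 libraries (log2 0.54 ± 0.0756 and 0.44 ± 0.0612). Acadl, an oxidation gene, was among the lower ones (-0.61 ± 0.132). With total-count scaling 4 were higher and 4 lower; the higher count was 4 and 2 without corpus 8025 or 8026, and the lower count was 0 without corpus 8025, corpus 8026 or antral 8025, 1 without antral 8026 and 5 without antral 8028.

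Some genes of the unfolded protein and amino acid stress responses were higher in antrum. With 10 libraries 9 of 25 were higher, by 0.30 to 0.80 on the log2 scale, and 0 lower, against 2.27% and 4.33% of all genes, and 0 were called with 12. The other 16 did not pass, 8 of the 25 differences were negative, and the median was 0.10, or 0.02 with total-count scaling. After Wnt inhibition the same list had 1 gene higher and 6 lower in antrum with 10 libraries, where 9.13% and 5.46% of all genes were called; 1 of the 9 was called higher again. Herpud1 stood at 75.4, 80.2 and 88.6 CPM in corpus and 107, 105 and 106 CPM in antrum, Hspa5, the main chaperone of the endoplasmic reticulum, at 1065, 1077 and 1194 CPM in corpus and 1470.03, 1335 and 1425 CPM in antrum, and Chac1, a glutathione-degrading enzyme, at 17.8, 19.3 and 24.6 CPM in corpus and 30.4, 30.0 and 26.0 CPM in antrum. Every antral library lay above every corpus library for these 3. Ppp1r15a, a phosphatase subunit that ends the same response, is outside the list and was called in both fits at 21.5, 22.8 and 24.4 CPM in corpus and 37.9, 39.8 and 40.1 CPM in antrum (log2 0.78 ± 0.113, adjusted p 0.0373). The list's count was 4 with total-count scaling, 1 and 3 without corpus 8025 or 8026, and 7 to 9 without an antral library.

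The called glycolysis and hypoxia genes were lower in antrum. With 10 libraries 4 of 28 were lower and 0 higher, against 4.33% and 2.27% of all genes, and 0 were called with 12: Gpi1, which isomerises glucose 6-phosphate (1679, 1763 and 1313 CPM in corpus, 900.3, 691 and 1182 in antrum), Car9, a hypoxia-induced carbonic anhydrase (355, 364 and 285 CPM in corpus and 214, 136 and 211 in antrum), Hk2 and Gapdh. Negative differences were found in 26 of the 28, against 51.4% of all genes tested, with a median of -0.31. The count was 0 without corpus 8025 or 8026, 1 and 2 without antral 8025 or 8026, 13 without antral 8028 and 8 with total-count scaling.

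Some intestinal genes were higher in antrum. With 10 libraries 5 of 20 were higher and 0 lower, against 2.27% and 4.33% of all genes, and 0 of 19 were called with 12. The list's median log2 difference with 10 libraries was 0.24, with 12 genes positive and 7 negative. Without corpus 8025 or 8026 the count was 2 and 1. Cdx2, the intestinal master factor, stood at 10.9, 8.80 and 23.8 CPM in corpus and 18.8, 25.5 and 17.4 CPM in antrum, and Lgals4, a gut lectin, at 489, 424 and 699 CPM in corpus and 635, 799 and 677 CPM in antrum. Isx, an intestinal homeodomain factor, had 29 counts in corpus and 150 in antrum. Clca1, a goblet cell secretory protein, stood at 1.13, 1.69 and 2.63 CPM in corpus and 5.72, 7.35 and 12.2 CPM in antrum, and the microvillus gene Vil1 differed by 0.47 ± 0.0627 on the log2 scale. The library labelled corpus 8028 lay within or above the antral range for 3 of the 5. Outside the list, and chosen after their values were seen, the brush-border genes Slc9a3, a sodium-hydrogen exchanger (12.03, 20.1 and 74.5 CPM in corpus, 69.7, 78.0 and 143 in antrum), and Mgam, a disaccharidase (2.40, 2.68 and 10.9 CPM in corpus and 6.07, 8.80 and 7.56 in antrum), were also called with 10 libraries (adjusted p 0.0116 and 0.00407), and the library labelled corpus 8028 lay within the antral range for Slc9a3 and above it for Mgam. Cldn3, a tight junction claudin, stood at 1.10, 1.75 and 3.86 CPM in corpus and 7.02, 9.46 and 9.60 CPM in antrum (log2 2.62 ± 0.285, adjusted p 0.00143; 0.133 with 12), without overlap.

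Signalling genes differed one by one. Id3, a target of bone morphogenetic protein signals, was lower in antrum at 19.2, 20.2 and 17.7 CPM, against 35.6, 39.0 and 35.4 CPM in corpus (log2 -0.94 ± 0.118, adjusted p 0.0220 with 12 libraries and 0.00382 with 10), and the library labelled corpus 8028 sat with the other corpus libraries. Of 27 genes of this pathway 3 were lower with 10 libraries and 0 higher, and in the retinoid list 3 of 31 were higher and 3 lower, against 2.27% higher and 4.33% lower of all genes. In the latter, Rarb, a retinoic acid receptor, stood at 2.40, 1.56 and 0.732 CPM in corpus and 0.177, 0.362 and 0.2505 in antrum, and Aldh1a1, which makes retinoic acid, at 175, 169 and 153 CPM in corpus and 109, 108 and 110.1 CPM in antrum (adjusted p 0.00359; 0.155 with 12). Dhrs9, a retinol-oxidising enzyme, was higher in antrum at 0.767, 1.22 and 1.04 CPM, against 0.385, 0.223 and 0.433 CPM.

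Of 19 Wnt target genes 2 were higher in antrum with 10 libraries, against 2.27% of all genes, 0 were lower and 0 were called with 12; after inhibition 11 were higher with 10 libraries, against 9.13%. No gene of the DNA replication and mitosis list was called in vehicle. After inhibition 38 of its 39 genes were called higher in antrum with 10 libraries, against 9.13% of all genes. Lgr5, a receptor for R-spondin and stem cell marker, stood at 51.1, 51.1 and 42.4 CPM in corpus and 46.3, 40.04 and 48.8 CPM in antrum, and Axin2, a Wnt feedback gene, at 70.7, 64.2 and 71.4 CPM in corpus and 70.1, 79.0 and 77.4 CPM in antrum; neither passed in either fit. The Wnt targets called were Tcf7 and Ephb2, higher by 0.40 and 0.29 on the log2 scale. All 39 DNA replication and mitosis genes had a positive difference in both fits, with a median of 0.22 with 12 and 0.34 with 10 libraries, where 49% and 48.6% of all genes tested were positive, but 0 of the 39 were called in either (lowest adjusted p 0.235 and 0.0528). Mki67, for example, stood at 295, 315 and 368 CPM in corpus and 364, 414 and 359 CPM in antrum, and the library labelled corpus 8028 lay within the antral range. Genes of the cell cycle are known to vary together, so they are not separate observations.

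**Figure D4:**
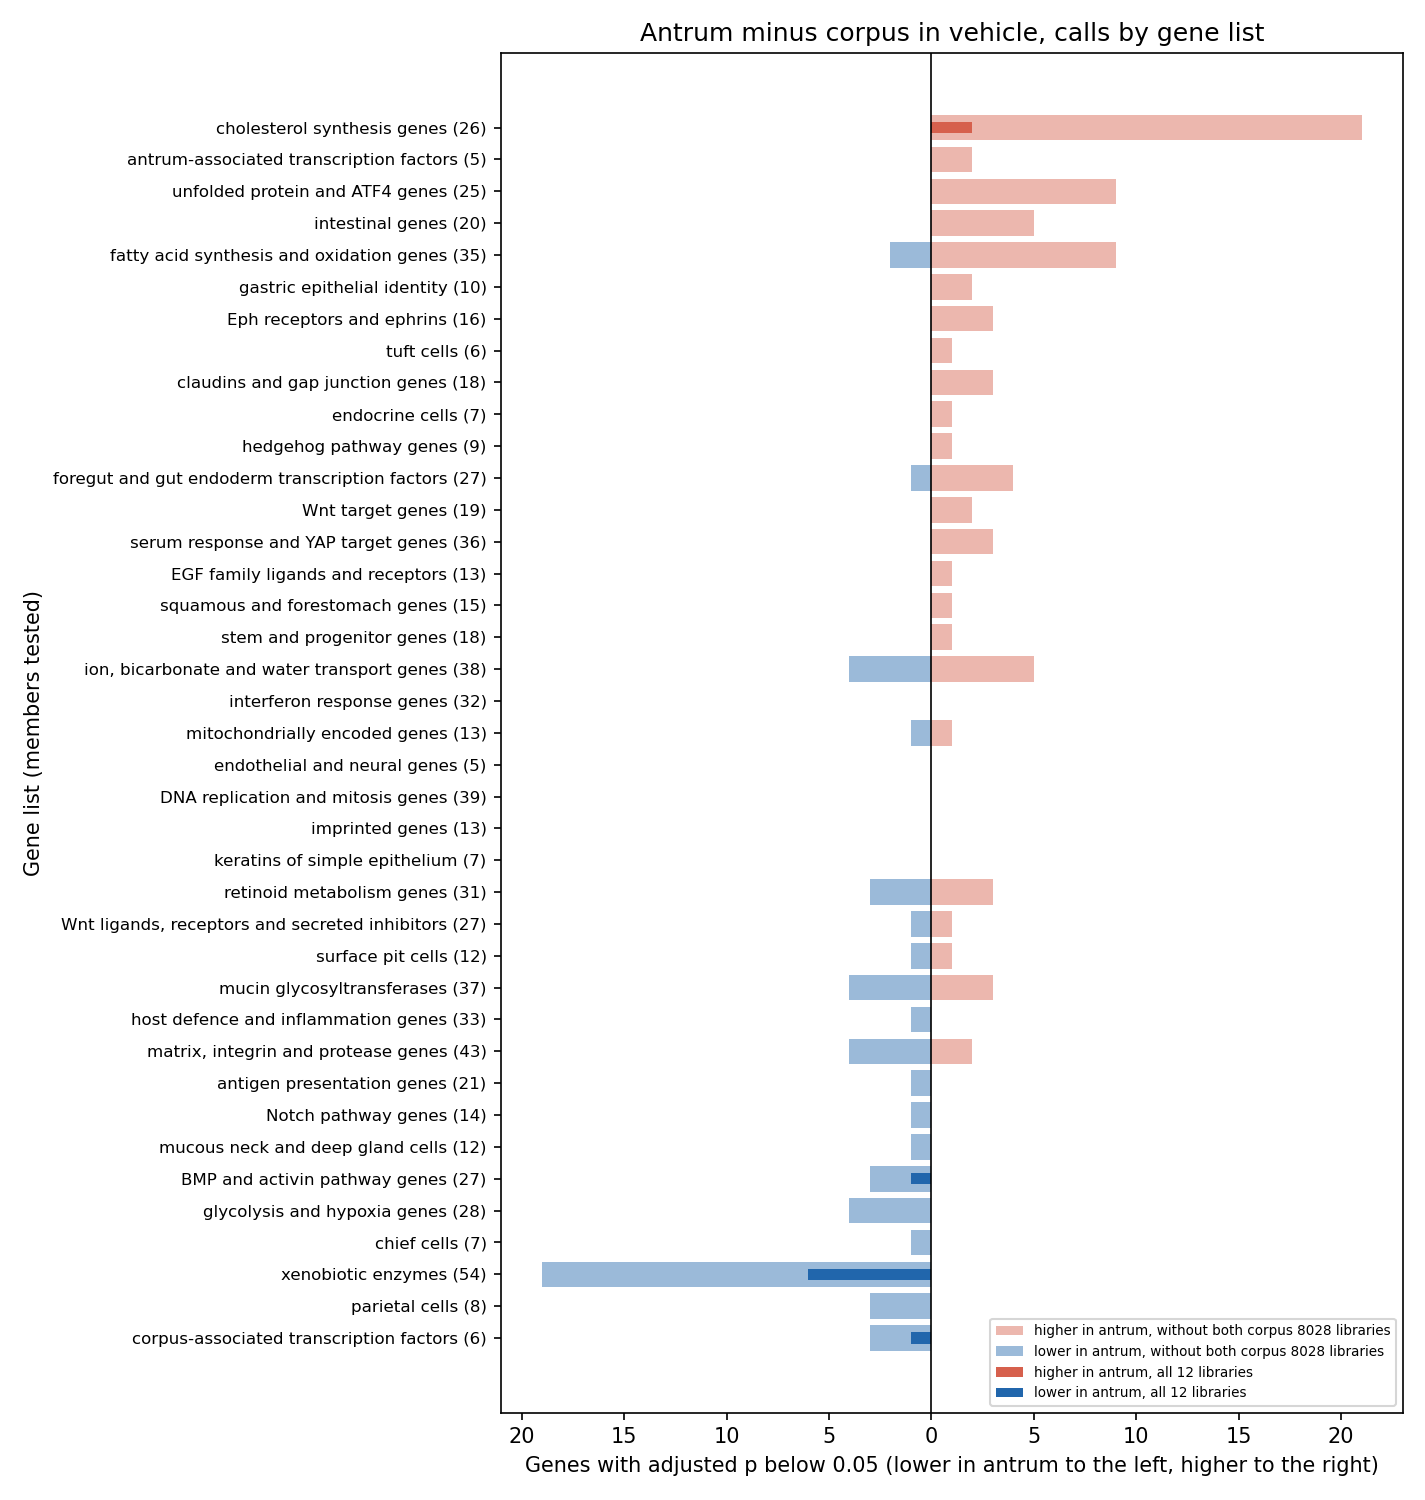
Number of genes called higher (right, red) or lower (left, blue) in antrum in each list with at least 5 genes tested, other than the ribosomal RNA-like genes. Wide pale bars are the 10-library fit and narrow dark bars the 12-library fit, with the number tested in brackets. The 2 longest bars are the 21 cholesterol synthesis genes to the right and the 19 xenobiotic enzymes to the left.

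Other genes called with 12 libraries lie outside these lists. Slc28a3, a nucleoside transporter, stood at 3.38, 2.90 and 2.40 CPM in corpus and 7.43, 8.47 and 10.7 CPM in antrum (log2 1.62 ± 0.214, adjusted p 0.0252), and Cfb, complement factor B, at 10.2, 7.88 and 11.7 CPM in corpus and 20.1, 20.5 and 23.8 CPM in antrum (1.11 ± 0.173, adjusted p 0.0454). Sh3bp1, a GTPase-activating protein, was lower in antrum at 15.6, 13.4 and 16.2 CPM, against 35.9, 39.3 and 30.3 CPM (-1.22 ± 0.158, adjusted p 0.0241). Smim31, a small membrane protein gene, had 379 counts in corpus and 13 in antrum, a ratio of 21.8 (12.6 to 41.4). Smaller differences were called for Plekhd1, Tspan13, Gmppb and Nedd9, higher in antrum by 0.33 to 0.92 on the log2 scale, and for Oit1, Crybg2 and Eif4a2, lower by 0.45 to 0.67. Fes, a tyrosine kinase gene, was higher in antrum at 4.66, 5.73 and 4.51 CPM, against 1.33, 0.797 and 0.899 CPM in corpus. The pair Gm21312 and Gm20765 held identical counts in every library, and so their 2 calls are not separate.

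With 10 libraries, more genes of low or moderate level separated the regions. Ly6d stood at 64.2, 52.0 and 37.0 CPM in corpus and 12.4, 8.96 and 22.1 CPM in antrum. Slc1a3, a glutamate transporter, stood at 9.42, 17.6 and 4.89 CPM in corpus and 4.78, 3.66 and 4.26 CPM in antrum. Acsm3, a medium-chain acyl-CoA synthetase, was higher in antrum at 179.5, 188 and 199 CPM, against 92.0, 101 and 176 CPM, and so was Cdo1, a cysteine dioxygenase, at 106, 148 and 143 against 59.3, 57.7 and 107 CPM. For Slc1a3, Acsm3 and Cdo1 the library labelled corpus 8028 lay nearer to antrum than to the other corpus libraries, and none of these 4 genes passed with 12 libraries.

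The same lines were also measured after Wnt inhibition, in separate libraries. There, 10 of 16152 genes differed between the regions with 12 libraries (0.0619%) and 2386 of 16355 with 10 (14.6%). Of the 32 vehicle calls, 29 had the same sign after inhibition and 5 were called again. Of the 1080 vehicle calls of the 10-library fit, 1026 (95%) had the same sign after inhibition and 589 (54.5%) were called with it, which is 24.7% of the inhibited calls; 4 were called with the opposite sign. Nkx6-3 was among those called in both with 10 libraries, at 0.247, 3.08 and 82.5 CPM in inhibited corpus lines 8025, 8026 and 8028 and 103, 119 and 107 in inhibited antrum, and Irx5 stood at 13.7, 13.2 and 2.56 CPM in corpus and 0, 0.0373 and 0 CPM in antrum. Of the 21 cholesterol genes 14 were called higher again, and of the 19 xenobiotic enzymes 8 were called lower again.

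The regional difference of Akr1c14 changed with inhibition. It stood at 28.7, 28.4 and 30.1 CPM in inhibited corpus and 28.0, 36.4 and 32.8 CPM in inhibited antrum, above every vehicle library, with a log2 regional difference of 0.16 in place of -2.11; the change of the difference was 2.27 (adjusted p 0.00963), the only one called with 12 libraries among 638 with an unadjusted p below 0.05. Since the same line within a region was measured both ways, the lines were also blocked, which gave 7 calls, all with a less negative or more positive difference after inhibition: Akr1c14, the glutathione transferases Gstm1, Gstm2 and Gstm3, the alcohol dehydrogenase gene Adh1, Pdcd4 and Atp2a3. Gstm3, for example, went from the vehicle values above to 239, 262 and 236 CPM in inhibited corpus and 267, 209 and 317 CPM in inhibited antrum (change 1.23, adjusted p 0.0019 with the block). With 10 libraries 3 changes were called: Akr1c14, Cd44 and Chac1. Chac1 was higher in antrum in vehicle and lower in antrum after inhibition in that fit, at 72.4, 67.7 and 35.3 CPM in inhibited corpus and 51.9, 48.8 and 43.9 CPM in inhibited antrum; the inhibited library labelled corpus 8028 lay below all 3 antral ones.

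**Figure D5:**
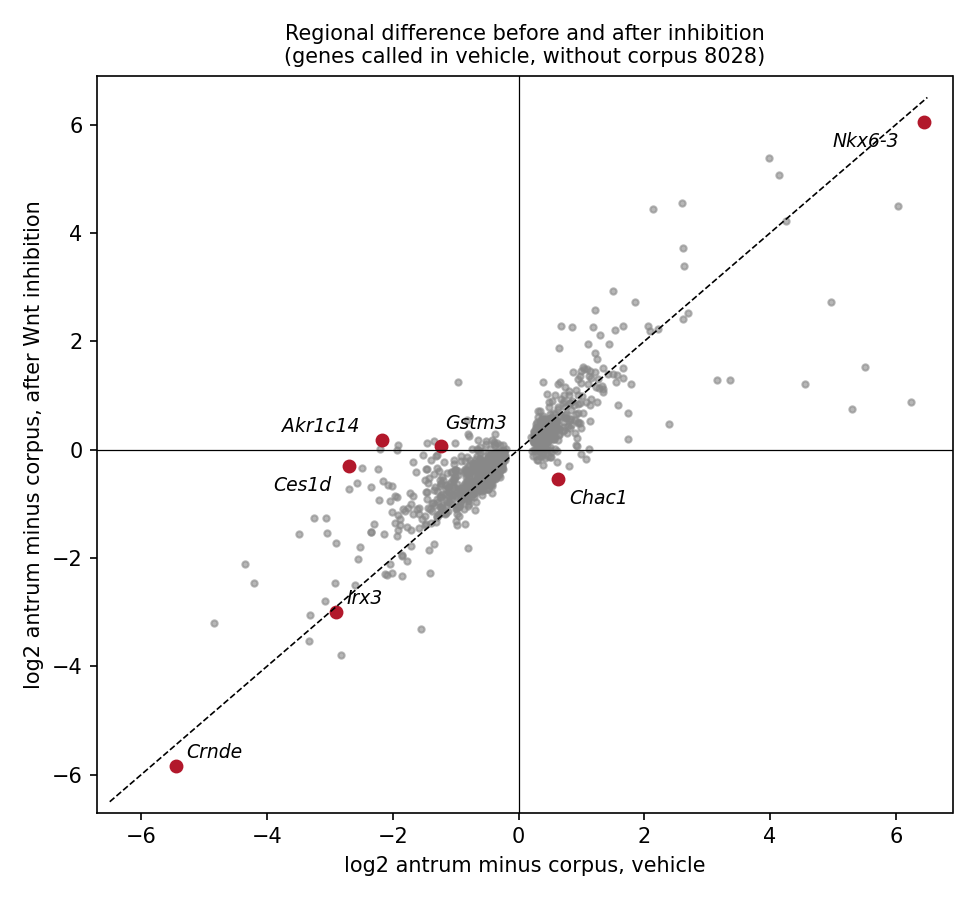
Log2 difference, antrum minus corpus, in vehicle (horizontal) and after Wnt inhibition (vertical) in the 10-library fit, for 1069 of the 1073 genes called in vehicle that both fits tested; 4 beyond 6.5 on either axis are not drawn, and the dashed line marks equal values. Most points lie on the same side of 0 on both axes, while Akr1c14 and Gstm3 lie near 0 after inhibition and Chac1 changes side.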

How the data were processed

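Polyadenylated RNA of 12 organoid libraries was sequenced, of which 6 are the vehicle libraries compared here. The authors deposited 1 table of expected counts per gene, which held only whole numbers. RSEM 1.3.3, STAR 2.7.8a, cutadapt 2.3 and FastQC 0.11.8, with the build GRCm38, are listed per the submitters' processing notes. The annotation was not given in the sources used here, nor was the strand setting. Of 55426 rows, 5 that name no gene (2 counts in all) were left out.

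Counts were TMM-scaled and tested with edgeR 4.0.16 (R 4.3.3), robust quasi-likelihood, after filterByExpr. All 12 libraries shared 1 estimate of the spread (8 residual degrees of freedom, 6 with 10 libraries). Vehicle and inhibited libraries of the same line were treated as independent there, although their deviations correlated (0.157 to 0.544). The degrees of freedom therefore count more than the lines. The p-values were Benjamini-Hochberg adjusted over all genes tested. Called means an adjusted p below 0.05. Standard errors (SE) are on the log2 scale. With 3 against 3 an exact permutation test cannot go below p = 0.1, so none is given. No 2 libraries of a group agreed within sampling noise. On data simulated for the vehicle comparison with 12 libraries (15873 genes), 58.21%, 88.06% and 95.45% of genes changed 1.5-, 2- and 4-fold were recovered, with 8 false calls. Only genes of high mean count were changed. The simulated libraries were independent, and none was placed between the regions. The shares therefore cannot be carried over to genes of low count or to a group holding such a library. Positions come from GENCODE mouse release 21, which matched 16139 of the 16152 genes tested, and promoter windows from RefSeq.

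Between corpus and antral vehicle libraries of the same number, deviations correlated at 0.133, -0.05 and -0.08 for lines 8025, 8026 and 8028. With so few lines, these values cannot decide whether the numbers pair the regions. Within a region the same line was treated both ways (0.157 to 0.544), so the change with inhibition is also given with lines blocked.

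Members and the 44 gene lists were chosen with earlier results of these data known. The share of a list set against that of all genes therefore describes the list and is not independent support. Named genes are the 10 largest log2 differences each way among non-overlapping calls at 5 CPM or more, the 5 largest at 100 CPM or more, a fixed set of regional and lineage genes, and up to 4 called members a list; others were chosen after their values were seen. A few genes are not reported here. Alternatives were other scalings, filters, DESeq2 1.42.0, limma-voom (limma 3.58.1), fewer libraries and line blocks.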

Additional observations from a re-analysis of the deposited data

Results flagged for a closer look

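Fits of the change in the regional difference with inhibition gave calls, and each called gene is listed because that difference was itself tested. With 12 libraries the log2 difference of Akr1c14 changed by 2.27 (edgeR adjusted p 0.00963). With lines blocked within region, 7 genes changed: Akr1c14 by 2.27 and Gstm3 by 1.23 (adjusted p 0.0019 each), and Adh1 by 1.33, Gstm1 by 0.78, Gstm2 by 0.66, Pdcd4 by 0.59 and Atp2a3 by 0.52 (adjusted p 0.0454 each). Without both libraries of corpus line 8028, Akr1c14 changed by 2.35, Cd44, a hyaluronan receptor and Wnt target, by 0.91, and Chac1 by -1.18 (adjusted p 0.0146 each).

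Cd44 stood at 228, 229 and 247 CPM in corpus and 301, 259.96 and 253 CPM in antrum in vehicle, and at 66.0, 70.2 and 163 CPM in corpus and 153, 151 and 151 CPM in antrum after inhibition. The inhibited library labelled corpus 8028 was above all 3 inhibited antral libraries. Adh1, an alcohol dehydrogenase that also oxidises retinol, stood at 75.9, 64.9 and 41.8 CPM in corpus and 42.8, 30.3 and 59.9 CPM in antrum in vehicle, and at 25.3, 26.8 and 21.8 CPM in corpus and 47.9, 33.6 and 55.2 CPM in antrum after inhibition.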

How the results depend on the processing

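The 32 calls of the 12-library fit became 17 with RLE, 18 with upper quartile and 61 with total-count scaling. They became 68 without a low-count filter, 497 with DESeq2 and 21 with limma-voom. With only the vehicle libraries there were 18 calls, of which 9 were among the 32. Without both libraries of corpus line 8028 there were 1080, against 2 without both of corpus line 8025 and 1 without both of 8026. These alternatives by line were chosen after seeing the data. Of the 32 calls, 16 were also at least 2-fold. With the line number as a replicate block there were 69 calls. With that block and only the vehicle libraries there were 6, of which 3 were among the 32. Only 1 of 3 corpus libraries correlated best with the antral library of its own number. With 3 lines this cannot decide whether the numbers pair the regions. Leaving out 1 vehicle library gave 1 to 70. The 1080 calls became 1840 with DESeq2, 414 with only the vehicle libraries, 3209 with the replicate block, 2124 with the block in vehicle libraries only, and 99 to 1933 with 1 library left out. After inhibition, 10 calls became 0 with only the 6 inhibited libraries and 2386 without both libraries of corpus line 8028. The change with inhibition went from 1 call to 7 with the line-within-region block and 3 without that line. Of the 32 genes, 14 were called in every scaling, only Akr1c14 in every alternative, and 0 reversed sign. The causes were not tested. Leaving out a library also left fewer samples, and the count fell in some of these settings and rose in others. Antral 8025 had the fewest counts of all libraries (18858022). Of 1.5-fold changes simulated in genes of high count, with independent libraries, 58.21% were recovered.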

Other observations

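Genes of the extracellular matrix and its receptors were called one by one with 10 libraries, 2 higher and 4 lower in antrum of 43 tested (2.27% and 4.33% of all genes), and none with 12. Both shares are within a few genes of those of all genes. Mmp7, a matrix protease, stood at 0.356, 0.415 and 0.699 CPM in corpus and 1.77, 1.29 and 3.05 CPM in antrum (log2 2.39 ± 0.484 SE, adjusted p 0.0199). Lamb1, a laminin chain, was lower in antrum at 17.2, 10.1 and 17.6 CPM, against 34.5, 35.4 and 14.9 CPM in corpus (adjusted p 0.0269), as were Lama5, another laminin chain (760.3, 601 and 714 against 984, 946 and 715 CPM), the integrin gene Itgb5 and the urokinase gene Plau. For the 4 lower genes the library labelled corpus 8028 lay within or beyond the antral range.

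Of 37 enzymes that build mucin sugars 3 were higher and 4 lower with 10 libraries, against 2.27% and 4.33% of all genes, and none was called with 12. Gcnt4, a branching enzyme, and Galnt5, which starts mucin glycans, were among the higher ones (11.1, 10.4 and 14.1 CPM in corpus and 15.0, 16.6 and 14.9 in antrum for Gcnt4, 0.415, 0.351 and 0.599 CPM in corpus and 1.24, 1.29 and 1.13 in antrum for Galnt5). Fut2, which adds terminal fucose, was lower at 108, 94.5 and 107 CPM, against 126, 138 and 107 CPM. Notch3, a Notch receptor, was the only one of 14 pathway genes called with 10 libraries, a share near the 6.6% of all genes called either way. It stood at 47.6, 44.7 and 34.6 CPM in corpus and 27.7, 18.7 and 27.8 CPM in antrum (adjusted p 0.0117 with 10 libraries and 0.171 with 12). Ptgs1, a prostaglandin synthase known from tuft cells, stood at 10.3, 9.09 and 19.9 CPM in corpus and 26.8, 23.9 and 17.6 CPM in antrum (adjusted p 0.00967 with 10 libraries).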
